A study of Mus musculus with 10 samples.

Results

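The miRNAs described here are 6 of those on mouse liver arrays, namely miR-346, miR-7a*, miR-675-5p, miR-1196, miR-692 and miR-703. They are the members of a named list of miRNAs whose signal was at least 2-fold above the other arrays on 1 or more arrays of either genotype, and each matched 1 probe, which gives 6 of the 655 probes on the array. The arrays compared liver RNA of 5 wild-type mice (WT) with that of 5 transgenic mice (LivPGC-1α). All 10 were FVB/N mice aged 4 months, and the livers were taken after an overnight fast by the study's account. LivPGC-1α mice carry a human PGC-1α coding sequence under Apolipoprotein E regulatory sequences that direct it to the liver, whereas WT mice are FVB/N mice without the transgene. The sources used here do not give the number of founder lines. Each sample was hybridised to 1 array, and all 10 arrays lay on 1 chip, WT on positions 1 to 5 and LivPGC-1α on positions 6 to 10, so that chip position and genotype cannot be told apart. The samples are numbered 1 to 5 in each genotype. Nothing in the labels says that each came from a separate mouse, and if some did not, the p-values cover only the spread between these samples.

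MicroRNAs are cut from a hairpin precursor, whose 2 arms can each give a mature strand. The more abundant strand guides the silencing complex to target mRNAs, mainly through its seed, the bases 2 to 8, and the other strand, marked by an asterisk in older names, is usually degraded. PGC-1α coactivates transcription of genes for mitochondrial respiration, gluconeogenesis and the burning of fatty acids, and rises in liver on fasting. Of the miRNAs described here, miR-7a is known from pancreatic islets and brain, and miR-7a* is the opposite strand of its hairpin. miR-675 is cut from H19, an imprinted non-coding RNA that is abundant in fetal liver and falls after birth. miR-346 lies in Grid1, a glutamate receptor gene of the nervous system.

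A table of RefSeq miRNAs (GRCm38.p6) was matched for 5 of the 6 miRNAs, all but miR-1196. The sequences are shown to compare their seeds and to place them in the genome. Capitals mark the seed, and the array's older names were matched to the table by name. The probe sequences were not used here, so that miR-346 was assumed to be the 5p arm of its hairpin, and miR-7a* the 3p arm of the miR-7a-1 hairpin, which lies on the chromosome that the array's file gives. The sequences, positions and shared bases given for these miRNAs depend on that.
miR-346: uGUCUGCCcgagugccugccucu
miR-7a*: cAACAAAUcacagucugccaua
miR-675-5p: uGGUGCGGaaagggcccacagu
miR-692: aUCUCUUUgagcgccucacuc
miR-703: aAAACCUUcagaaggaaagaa
No seed was shared among the 5. The positions of the mature sequences are chr14:34894624-34894646 on the plus strand for miR-346, chr13:58392800-58392821 on the minus strand for miR-7a*, chr7:142577112-142577133 on the minus strand for miR-675-5p and chr5:98475616-98475636 on the minus strand for miR-703. These hairpins lie within Grid1, Hnrnpk, H19 and Cfap299, respectively, of which Hnrnpk encodes an RNA-binding protein. The sequence of miR-692 occurs at 3 loci, on chromosomes 4, 13 and 17, while the array's file assigns its probe to chromosomes 4 and 17. These loci are chr4:125504805-125504825 and chr13:74407121-74407141 on the plus strand and chr17:6895259-6895279 on the minus strand. The loci on chromosomes 4 and 13 lie within Ftl2-ps and Ftl1-ps1, pseudogenes of ferritin light chain, an iron storage protein, and the first also within Grik3. The share of G and C was 65.2% in miR-346, 63.6% in miR-675-5p, 52.4% in miR-692, 40.9% in miR-7a* and 33.3% in miR-703, against a median of 52.2% over the 1674 distinct mature sequences of the table.

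Although no seed was shared, miR-346 and miR-7a* had in common the 7 bases GUCUGCC, here in capitals.
miR-346: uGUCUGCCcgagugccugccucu
miR-7a*: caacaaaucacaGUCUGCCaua
In miR-346 these are bases 2 to 8, its seed, and in miR-7a* they are bases 13 to 19. The run was looked for on the mature strand only, after the signals had been seen, and it occurs in 5 of the 1674 sequences (0.299%), among them the 3p arm of the miR-7a-2 hairpin. A common run of 7 or more bases was found in 1 of the 10 pairs among the 5 miRNAs and in 2.14% of all pairs in the table. Of the miRNAs found below to be most like this pair in signal, miR-504 had 6 bases (GUCUGC) in common with each, whereas the longest run of miR-708 was 3 bases with miR-346 and 4 with miR-7a*. Runs of 6 bases were also common to miR-7a* and miR-675-5p (CACAGU) and to miR-675-5p and miR-703 (GGAAAG). The share of all pairs in the table with a run of 6 bases was not computed. Whether any of these runs bears on the signals below was not tested.

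miR-346 and miR-7a* were high on the same 3 arrays, WT 5, LivPGC-1α 1 and LivPGC-1α 3. The normalized signal, which is the probe's intensity after quantile normalization of the 10 arrays, was 1229, 1760.2, 1404, 2236 and 47640.3 for miR-346 on WT 1 to WT 5. On LivPGC-1α 1 to LivPGC-1α 5 it was 11489.9, 1781, 8561, 1547.5 and 1488. One WT array and 2 LivPGC-1α arrays thus stood apart, and the other 7 arrays of both genotypes lay within 1.82-fold of each other. WT 5 was 27.1-fold above the median of the other 9 arrays, LivPGC-1α 1 was 6.53-fold and LivPGC-1α 3 was 4.86-fold above theirs. On WT 5 miR-346 took rank 12 of the 655 probes, against ranks between 317 and 421 on the 7 arrays without a step. The step was present before normalization, with a raw intensity of 50049 on WT 5 and between 1150.0 and 1948 on WT 1 to WT 4.

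The signal of miR-7a* was 4493, 4809.9, 4017.5, 6062 and 47945 on WT 1 to WT 5. It was 14165, 4909.7, 11932.5, 4739 and 3411 on LivPGC-1α 1 to LivPGC-1α 5. The order of the 3 high arrays was the same as for miR-346, with WT 5 at 9.97-fold, LivPGC-1α 1 at 2.95-fold and LivPGC-1α 3 at 2.48-fold above the median of the other 9. The remaining 7 arrays lay within 1.78-fold of each other.

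miR-675-5p was detected on WT 5 alone. A probe counted as detected when its detection p, a comparison with the negative control beads of the same array, was at most 0.01. The signal was 658, 687, 633, 652 and 5022 on WT 1 to WT 5, and 823, 740.5, 714, 770.5 and 645 on LivPGC-1α 1 to LivPGC-1α 5. The 9 arrays other than WT 5 lay below the lowest detected signal of their own array, and their signals are a bound and not a level. WT 5 was therefore at least 4.80-fold above the median of the other 9 arrays, with the lowest detected signal of each of these arrays in place of the probe's own (7.31-fold as measured). Unlike miR-346 and miR-7a*, miR-675-5p was not detected on LivPGC-1α 1 or LivPGC-1α 3.

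**Figure D1:**
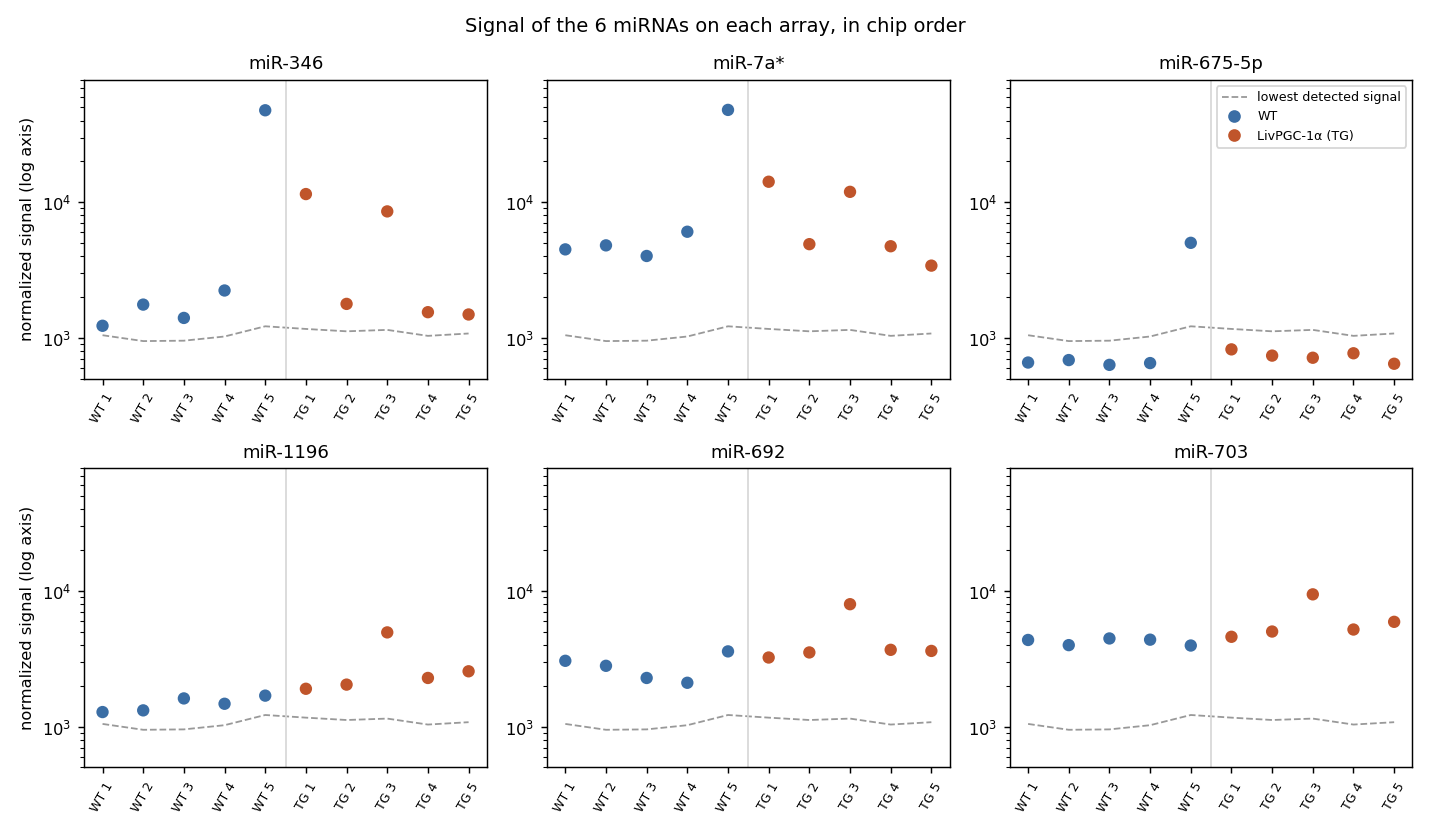
Normalized signal (log axis) of the 6 miRNAs on each array in chip order, 5 WT arrays in blue and 5 LivPGC-1α arrays (TG) in orange, 1 point per array. The dashed line is the lowest detected signal of each array. miR-346 and miR-7a* are high on WT 5, TG 1 and TG 3, miR-675-5p on WT 5, and miR-1196, miR-692 and miR-703 on TG 3.

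The other 3 miRNAs were high on LivPGC-1α 3 alone, and by less. The signal of miR-1196 was 1280.2, 1317, 1614, 1473.5 and 1692 on WT 1 to WT 5. It was 1901, 2039.8, 4948.5, 2284 and 2557 on LivPGC-1α 1 to LivPGC-1α 5. LivPGC-1α 3 was 2.93-fold above the median of the others, and the other 4 LivPGC-1α arrays, from 1901 to 2557, lay above all 5 WT arrays as well. The groups did not overlap.

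The signal of miR-692 was 3055, 2807, 2284, 2104 and 3585 on WT 1 to WT 5, and 3231, 3521, 7986, 3681 and 3613 on LivPGC-1α 1 to LivPGC-1α 5. LivPGC-1α 3 was 2.47-fold above the median of the others. WT 5 lay above LivPGC-1α 1 and LivPGC-1α 2, so that the groups overlapped.

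The signal of miR-703 was 4352, 3987, 4465, 4374 and 3960.5 on WT 1 to WT 5. It was 4593, 5022, 9439, 5196 and 5921 on LivPGC-1α 1 to LivPGC-1α 5, with LivPGC-1α 3 at 2.11-fold above the median of the others. As for miR-1196, the lowest LivPGC-1α array lay above the highest WT array, although by 4593 against 4465.

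The height of single arrays is what chose these miRNAs and is given as a description. Of the 513 probes that were detected on at least 1 array, all 6 included, 46 (8.97%) had at least 1 array at 2 or more times the median of the other 9. WT 5 was high in this sense for 3.7% of the probes, LivPGC-1α 3 for 1.17% and LivPGC-1α 1 for 0.585%. The only probes high on WT 5, LivPGC-1α 1 and LivPGC-1α 3 together were those of miR-346 and miR-7a*. On each of these arrays miR-346 had the highest ratio of all tested probes. By the highest ratio, miR-346 took place 2 among the 513 probes, miR-7a* 7, miR-675-5p 8, miR-1196 28, miR-692 33 and miR-703 42. Just inside the 2-fold limit were miR-341 (2.01) and miR-708 (2.01), and just outside were miR-801:9.1 (1.99) and miR-130b (1.96). Over all tested probes the median of the highest ratio was 1.14.

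Some arrays stood apart beyond these miRNAs. Over the tested probes, WT 1, WT 3 and WT 5 spread around the WT mean of log2 signal with an SD of 0.37, 0.33 and 0.37, while each of the other 7 arrays had an SD of 0.11 to 0.18 around its group's mean. WT 5 also had the fewest detected probes, 423 of 655, against 431 to 482 on the others. The liver label was checked by 8 hepatocyte miRNAs (of 9 listed), all detected on every array. Their summed signal was between 280171 and 289382 in WT and between 285427 and 291419 in LivPGC-1α, lowest on WT 5. By their mean log2 deviation from each miRNA's median, LivPGC-1α 5 was lowest (−0.097), with WT 5 at −0.038. The summed signal of 6 leukocyte miRNAs was lowest on WT 5, at 119657 against 130909 to 148019 elsewhere. A list of 12 brain and neuroendocrine miRNAs, in which miR-124 was detected on no array and miR-375 on all 10, summed to 39231 on WT 5, within the range of the others, from 37908 to 43020.3. The brightest on this list, miR-137 (mean signal 21214), weighs most in the sum. Another on it, miR-129-5p, was high on WT 5, at 5402 against 2188 to 2487 on the other arrays. The part of these differences in the results on WT 5 was not tested. The striated muscle list (7 miRNAs, miR-208a detected on no array) was highest on WT 1, at 99224 against 6649.6 to 8219 elsewhere. The 18 miRNAs of an X-linked cluster known from testis were highest on WT 3, at 71334 against 26801.5 to 31468.5. The 3 erythroid miRNAs had sums between 85993 and 101205 in WT and between 81149.6 and 89987 in LivPGC-1α, lowest on LivPGC-1α 3. None of the 6 miRNAs was high on WT 1 or WT 3.

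The comparison of the genotypes asked whether any of the 6 miRNAs differed between LivPGC-1α and WT liver beyond the spread between samples. In limma, fitted over all 513 tested probes with Benjamini-Hochberg adjustment, none of the 6 was called at an adjusted p under 0.05, where 0.39% of all tested probes were called, 0.195% higher and 0.195% lower in LivPGC-1α. The log2 change was above 0 for 4 of the 6 and for 56.9% of all tested probes. At an unadjusted p under 0.05 there were 3 of the 6, namely miR-1196, miR-692 and miR-703, against 14.4% of all tested probes, and in 2 of the 6 the groups did not overlap, against 4.87%. The median log2 change, LivPGC-1α minus WT, was −0.18 over miR-346, miR-7a* and miR-675-5p and 0.61 over the other 3, against 0.012 over all tested probes. The miRNAs were chosen on these same signals. Each of the first 3 was highest on WT 5, which lowers its change, and each of the latter 3 on LivPGC-1α 3, which raises it. The signs of these medians are therefore not independent of how the miRNAs were split. A difference in cell number and a difference in RNA content per cell cannot be told apart in whole-liver RNA.

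For miR-346 the mean signal was 10854 ± 20568 (SD, n = 5) over the WT arrays and 4974 ± 4728 (SD, n = 5) over the LivPGC-1α arrays. The log2 change was 0.06 ± 1.09 (SE) (limma, adjusted p = 0.997), opposite in sign to the difference of these means, in which WT 5 weighs more than on the log2 scale. The sign of this change rested on single arrays, since it was 1.04 ± 0.69 (SE) without WT 5 (limma, adjusted p = 0.551) and −0.27 ± 1.17 (SE) without LivPGC-1α 3 (limma, adjusted p = 0.936). For miR-7a* the means were 13466 ± 19289.5 (SD, n = 5) and 7832 ± 4862.5 (SD, n = 5), with a log2 change of −0.18 ± 0.72 (SE) (limma, adjusted p = 0.964). It was 0.48 ± 0.43 (SE) without WT 5 (limma, adjusted p = 0.657). Over the 7 arrays without WT 5, LivPGC-1α 1 and LivPGC-1α 3, a setting chosen after the data were seen, the log2 changes were −0.010 ± 0.21 (SE) for miR-346 and −0.15 ± 0.18 (SE) for miR-7a* (limma, adjusted p = 0.986 and 0.840). For miR-675-5p the log2 change was −0.42 ± 0.54 (SE) (limma, adjusted p = 0.787), and it rests on WT 5, without which the probe was detected nowhere. The value moved to −1.71 with a linear term for chip position, −0.77 with background removed by normexp and −0.093 with array weights (limma, adjusted p = 0.737, 0.819 and 0.965), and with the undetected arrays at their lowest detected signal no fold between the genotypes could be given.

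The signal of miR-1196 was 1475 ± 180 (SD, n = 5) over the WT arrays and 2746 ± 1256 (SD, n = 5) over the LivPGC-1α arrays. The log2 change was 0.81 ± 0.24 (SE), or 1.75-fold (limma, adjusted p = 0.145), and all 5 LivPGC-1α samples lay above all 5 WT samples. Without LivPGC-1α 3 the change was 0.57 ± 0.11 (SE), or 1.48-fold (limma, adjusted p = 0.0840), so that the change was smaller, its error smaller still, and the call the same. For miR-703 the means were 4228 ± 236 (SD, n = 5) and 6034 ± 1963 (SD, n = 5), and the log2 change was 0.46 ± 0.17 (SE), or 1.38-fold (limma, adjusted p = 0.268). It was 0.29 ± 0.07 (SE) without LivPGC-1α 3 (limma, adjusted p = 0.131). For miR-692 the means were 2767 ± 597 (SD, n = 5) and 4407 ± 2008 (SD, n = 5), with a log2 change of 0.61 ± 0.26 (SE), or 1.52-fold (limma, adjusted p = 0.324). It was 0.37 ± 0.15 (SE) without LivPGC-1α 3 (limma, adjusted p = 0.352). When chip position was added as a linear term the changes were 0.31 ± 0.48 (SE) for miR-1196, 0.30 ± 0.37 (SE) for miR-703 and 0.50 ± 0.55 (SE) for miR-692 (limma, adjusted p = 0.922, 0.894 and 0.863). The signal of miR-1196 was lowest on positions 1 and 2, intermediate on positions 3 to 5, and higher on each of positions 6 to 10, and the part of chip position in its difference between genotypes cannot be told apart from that of genotype.

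**Figure D2:**
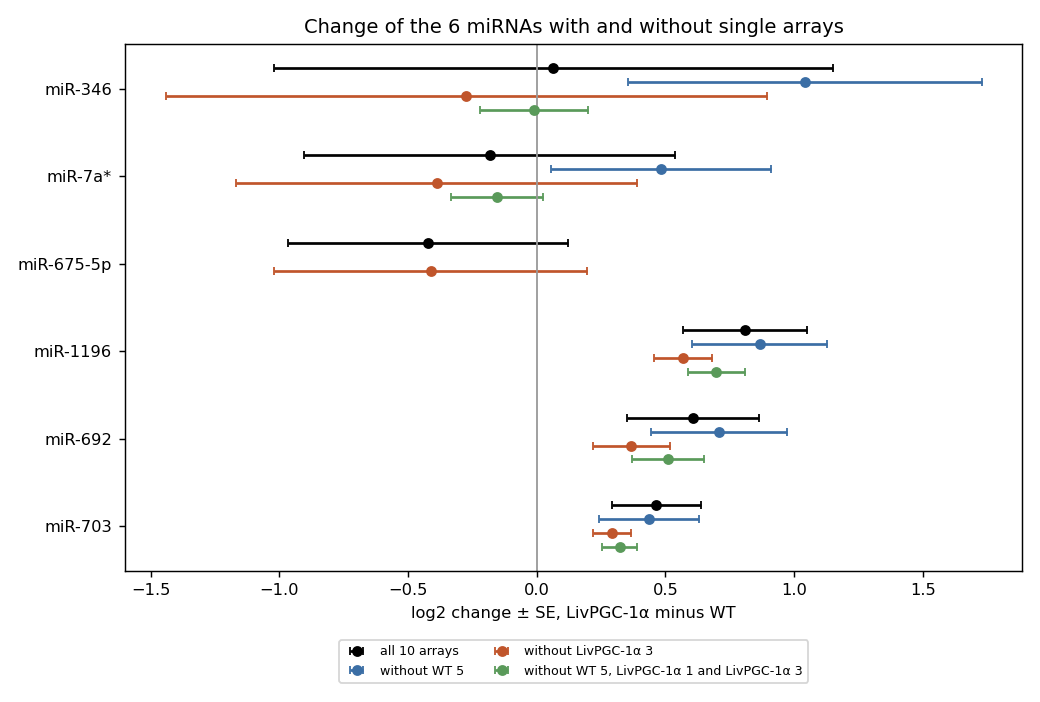
Log2 change of the 6 miRNAs (LivPGC-1α minus WT) with its standard error, over all 10 arrays, without WT 5, without LivPGC-1α 3 and without WT 5, LivPGC-1α 1 and LivPGC-1α 3. The estimate for miR-346 runs from −0.27 to 1.04 between these settings, while those of miR-1196, miR-692 and miR-703 stay above 0. miR-675-5p has no value where WT 5 is left out.

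How the 6 miRNAs varied together over the arrays was described by Pearson's r and Spearman's rho of the log2 signals, with no p, because the miRNAs were chosen for their high arrays. All 15 pairs were computed. The closest pair was miR-346 and miR-7a*, with r = 0.99 and rho = 0.95 over 10 arrays and r = 0.99 for the deviations from the group means. Without WT 5 and LivPGC-1α 1 it was 0.95 (8 arrays), and over the 7 arrays on which neither was high it was 0.71. Both miRNAs were thus high on the same arrays, and among the low arrays WT 4 was the highest for each. miR-675-5p had r = 0.82 with miR-346 and 0.87 with miR-7a*, and since it was detected on WT 5 alone, both values rest on that array. Over all pairs of the 513 tested probes the median r was 0.045, and the 5th and 95th percentiles were −0.58 and 0.67.

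**Figure D3:**
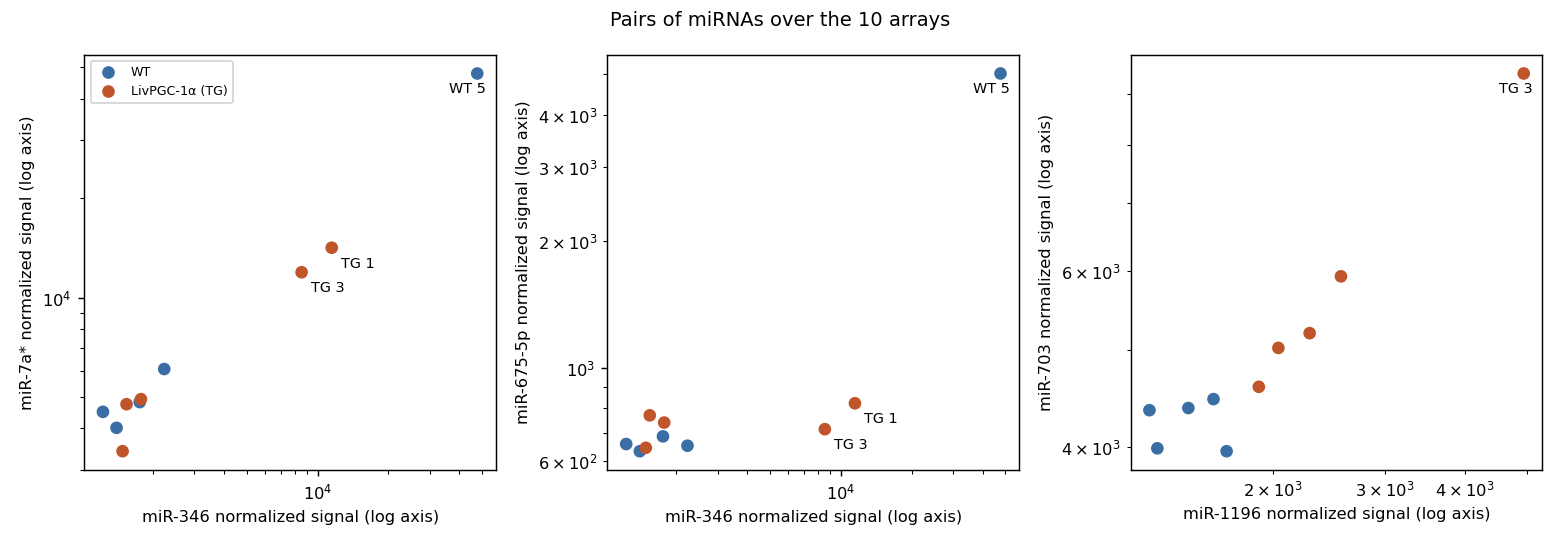
Normalized signals (log axes) of miR-346 against miR-7a*, miR-346 against miR-675-5p, and miR-1196 against miR-703, 1 point per array, WT in blue and LivPGC-1α (TG) in orange. miR-346 and miR-7a* rank WT 5, TG 1 and TG 3 in the same order, while miR-675-5p is high on WT 5 alone. miR-1196 and miR-703 are highest on TG 3 and have r = 0.86 over the other 9 arrays, which includes the difference between genotypes.

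Among the miRNAs high on LivPGC-1α 3, miR-1196 and miR-703 had r = 0.96 and rho = 0.87, and 0.86 over the 9 arrays without LivPGC-1α 3. miR-1196 and miR-692 had r = 0.88 and 0.62, and miR-692 and miR-703 had r = 0.85 and 0.43, over 10 and 9 arrays respectively. As deviations from the group means, which take out the difference between genotypes, the 3 pairs had r = 0.93, 0.81 and 0.75. These still include LivPGC-1α 3, while the values over 9 arrays still include the difference between genotypes. With both taken out r was not computed, so covariation beyond them is not shown. Between the 2 sets of miRNAs r over 10 arrays was between −0.29 (miR-675-5p and miR-703) and 0.38 (miR-346 and miR-692). Without WT 5 and LivPGC-1α 1 (8 arrays), r with miR-1196, miR-692 and miR-703 was 0.78, 0.77 and 0.83 for miR-346. For miR-7a* it was 0.62, 0.68 and 0.69, and for miR-675-5p, undetected on these 8, 0.40, 0.50 and 0.30. Over the 7 arrays on which neither was high, r was −0.035, −0.37 and −0.17 for miR-346 and −0.47, −0.43 and −0.56 for miR-7a*. LivPGC-1α 3 was the array on which the sets met, as miR-346 and miR-7a* were high there too.

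Other miRNAs with a like pattern were looked for among all tested probes, as the 3 probes with the highest r over the 10 arrays for each of the 6. For miR-346 and for miR-7a* these were each other, miR-708 and miR-504. miR-708 lies within Tenm4 and miR-504 within Fgf13. With miR-346 the r of miR-708 was 0.99 and that of miR-504 was 0.91, and with miR-7a* they were 0.98 and 0.92. With miR-346 and miR-7a*, rho was 0.86 and 0.91 for miR-708, but 0.62 and 0.47 for miR-504. Leaving out WT 5 and LivPGC-1α 1 gave r of 0.96 and 0.95 for miR-708 and of 0.90 and 0.75 for miR-504. The signal of miR-708 was 25966, 27725, 26513, 27367.5 and 55004 on WT 1 to WT 5, and 41061, 28089, 41061, 25307 and 23881 on LivPGC-1α 1 to LivPGC-1α 5. It was therefore raised on the same 3 arrays as miR-346, by 2.01-fold, 1.50-fold and 1.50-fold over the median of the others. On WT 5 it held the highest value of the array, which quantile normalization sets to 55004 on all 10 arrays, so that the ratio there could not have come out higher. miR-504 was 49531 on WT 5, 17380.4 on LivPGC-1α 1, 19332 on LivPGC-1α 3 and between 12733 and 15064 on the other 7.

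For miR-675-5p the most like were miR-212, miR-719 and miR-466d-5p (r = 1.00, 1.00 and 0.99), all high on WT 5. Since miR-675-5p was detected on WT 5 alone, as was miR-466d-5p, these values rest on that array and show no likeness beyond it. The signal of miR-212 reached 37869 on WT 5, against 11776 to 14725 elsewhere. For miR-1196 they were the provisional solexa-622-718 (r = 0.97), miR-703 and miR-302d (r = 0.95). For miR-703 they were miR-153 (r = 0.96), miR-1196 and miR-302d (r = 0.94), and for miR-692 they were miR-92a* (r = 0.94), miR-668 (r = 0.93) and miR-302d (r = 0.92). Without the 2 arrays farthest from the median of miR-1196 (LivPGC-1α 3 and LivPGC-1α 5) its r with solexa-622-718 was 0.91 over 8 arrays. These arrays still include the difference between genotypes. miR-302d, known from embryonic stem cells, was among the most like for miR-1196, miR-703 and miR-692. Without the 2 arrays farthest from the median of each, LivPGC-1α 3 among them, its r was 0.79, 0.60 and 0.65, respectively. By the same measure r was 0.78 for miR-1196 with miR-703 and 0.79 for miR-153 with miR-703. With miR-692 it was 0.81 for miR-92a* and 0.90 for miR-668. The signal of miR-302d was between 878 and 975 in WT, 1813.5 on LivPGC-1α 3 and between 1022 and 1159 on the other LivPGC-1α arrays. It was near the detection limit and was detected on 4 of the 10 arrays. miR-153 and miR-92a* were each detected on 1 array. The signal of solexa-622-718 was between 2647 and 3025 in WT, 4809.9 on LivPGC-1α 3 and between 3370 and 3642 on the other LivPGC-1α arrays. The log2 change was 0.41 ± 0.09 (SE) (limma, adjusted p = 0.105), and the groups did not overlap, as in 4.87% of all tested probes. This probe was picked for its likeness to miR-1196, whose groups did not overlap, so its difference between genotypes is not independent of that choice.

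**Figure D4:**
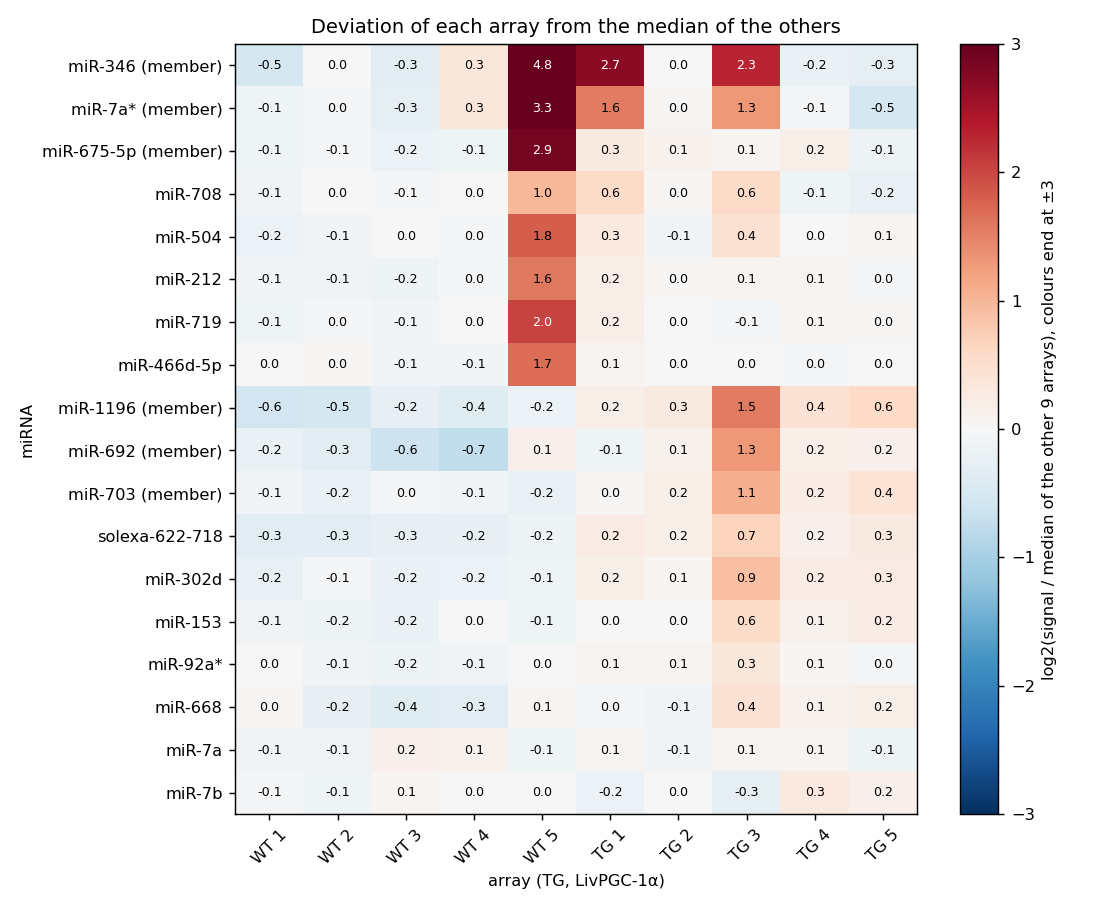
Log2 ratio of each array (columns, TG is LivPGC-1α) to the median of the other 9 arrays, for the 6 miRNAs, those most like them, miR-7a and miR-7b (rows). Red is above and blue below the median, and the numbers give the log2 ratios. miR-346, miR-7a* and miR-708 are raised on WT 5, TG 1 and TG 3, and the miRNAs like miR-1196 on TG 3.

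Other strands or relatives were on the array for miR-7a* and miR-675-5p only, as the probes of miR-7a, miR-7b and miR-675-3p, and none of the 3 was high on any array. The probe of miR-7a, the guide strand that both miR-7a hairpins give, had a signal of 28192 ± 1776 (SD, n = 5) over the WT arrays and 28171 ± 1312 (SD, n = 5) over the LivPGC-1α arrays. Its log2 change was −0.00011 ± 0.050 (SE) (limma, adjusted p = 0.998). On WT 5, LivPGC-1α 1 and LivPGC-1α 3 it was 0.91, 1.06 and 1.06 times the median of the other 9 arrays, against 9.97, 2.95 and 2.48 times for miR-7a*. The hairpin of miR-7a-1 is shown to place these strands, with miR-7a* in capitals, and the guide strand starts at the bases uggaagac.
miR-7a-1 hairpin: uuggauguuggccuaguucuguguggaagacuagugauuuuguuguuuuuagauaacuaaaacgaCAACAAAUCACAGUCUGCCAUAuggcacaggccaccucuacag
miR-7b, whose mature strand has the seed of miR-7a, was at 3117 ± 147 (SD, n = 5) over the WT arrays and 3197 ± 503 (SD, n = 5) over the LivPGC-1α arrays, and its highest array, LivPGC-1α 4, was 1.22-fold above the median of the others. The other arm of the miR-675 hairpin, miR-675-3p, was detected on no array, and its signal on WT 5 was 643, below the lowest detected signal of that array, 1218. Of these 3 probes 2 were tested, with 1 change above and 1 below 0 and none called.

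**Figure D5:**
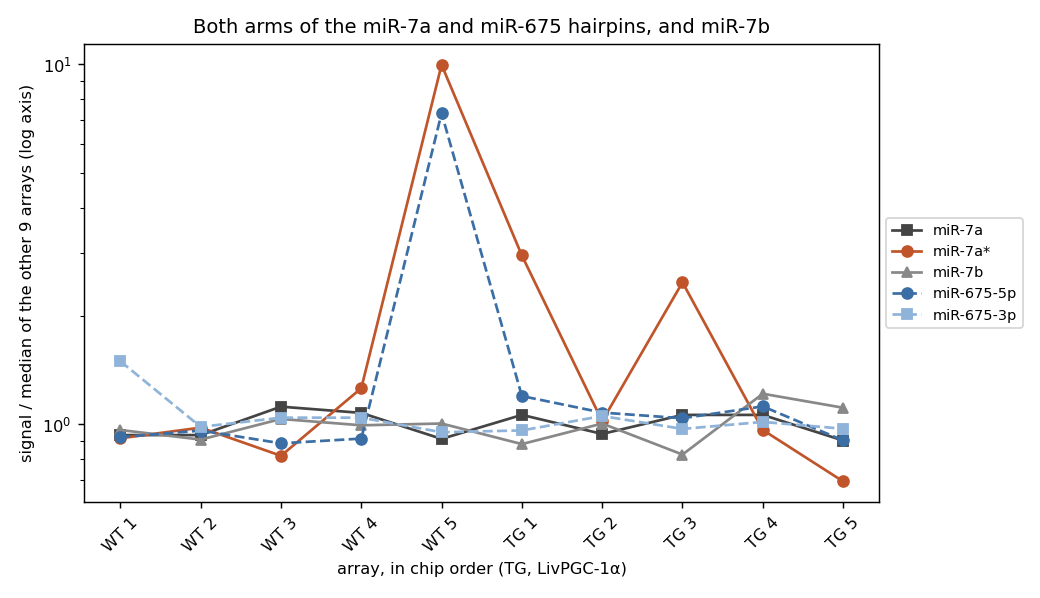
Signal of each array over the median of the other 9 arrays (log axis), in chip order, for both arms of the miR-7a and miR-675 hairpins and for miR-7b. TG is LivPGC-1α. miR-7a* rises on WT 5, TG 1 and TG 3 and miR-675-5p on WT 5, whereas miR-7a stays between 0.90 and 1.12. The highest point of miR-675-3p, 1.50 on WT 1, lies below the detection limit.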

How the data were processed

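Total liver RNA was profiled by the authors with an Illumina kit for microRNA expression on Universal BeadChips, which were read on an iScan. The deposited intensity is GenomeStudio's average bead signal per probe without background subtraction or scaling, and the authors deposited a detection p-value with each. A second deposited table holds their quantile-normalized intensity on a linear scale (median 2052.3 in every column), of which between 97.6% and 99.8% of values per array lay within 1% of those computed here. Because background was left in, ratios of dim probes are understated.

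Intensities were quantile-normalized over 655 probes and log2-transformed without offset. The 513 probes with a detection p of at most 0.01 on at least 1 array were tested by limma 3.58.1 (R 4.3.3; lmFit, eBayes, no covariate), with Benjamini-Hochberg adjustment, and the fit was tested on simulated data. The number of arrays limits the precision, and the median SE of a log2 change was 0.065. A fold written as at least sets the bright array against the lowest detected signals of the arrays where the probe was undetected.

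The members and lists were chosen with earlier results of these data known. Named were the members, other probes of their hairpins and families, the 3 probes most correlated with each member, the probe with the highest ratio on each array where a member was high, and miR-122. miR-122, the main hepatocyte miRNA, was at 53535 ± 940 (SD, n = 5) over the WT arrays and 53838.9 on every LivPGC-1α array. Probes beside the 2-fold limit and the common run of bases were chosen after their values were seen. Sequences are from RefSeq (GRCm38.p6). The files name no build. The alternatives comprised other normalizations, background correction, detection filters, variance models, array weights, a term for chip position, a replicate block and leaving out arrays.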

Additional observations from a re-analysis of the deposited data

Results flagged for a closer look

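In each of the 6 miRNAs 1 array lay far from the other 4 of its genotype. The gap of that array to its nearest neighbour, as a share of the group's whole range, was 0.978 for miR-346, 0.953 for miR-7a* and 0.988 for miR-675-5p, in each case on WT 5. It was 0.785 for miR-1196, 0.905 for miR-692 and 0.726 for miR-703, in each case on LivPGC-1α 3. The limit for 5 samples is 0.71, which chance passes in about 1 in 20 groups. Of the 12 groups checked 6 passed, but the miRNAs were chosen for their high arrays, so this count describes the choice. The high values of miR-346 and miR-7a* on LivPGC-1α 1 and LivPGC-1α 3 did not pass, since 2 arrays of 5 were high (0.293 and 0.208).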

How the results depend on the processing

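None of the 6 miRNAs was called by limma under any alternative that tested it. The lowest adjusted p was 0.0516, for miR-1196 with the 75th percentile over all probes (range for miR-1196 0.0516 to 0.922). The changes of miR-1196, miR-692 and miR-703 stayed above 0 in all 24 settings, while the value of miR-1196 ran from 0.31 with the chip position term to 1.31 with normexp. miR-675-5p was not tested with detection required on all 10 arrays or without WT 5. The change of miR-346 turned to −0.032 with scaling to the 75th percentile of the probes that every array detected, −1.14 with a linear term for chip position and −0.010 without WT 5, LivPGC-1α 1 and LivPGC-1α 3, and leaving out 1 array at a time gave −0.38 to 1.04. That of miR-7a* turned to 0.0071 with array weights and ran from −0.45 to 0.48 with 1 array left out. The cause was not tested.

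The number of probes called by limma, 2 of 513, became 80 with the 75th percentile over all probes, and 1 each with cyclic loess, no normalization, and a variance trend with robust eBayes. It became 0 with the chip position term (36 at an unadjusted p under 0.05) and 0 with the replicate block (59 at an unadjusted p under 0.05), and with 1 array left out it was 0 to 4, with 68 to 82 at an unadjusted p under 0.05 where it was 0 (without WT 2, WT 5 or LivPGC-1α 1), 1 without LivPGC-1α 2 or LivPGC-1α 5, and 4 without LivPGC-1α 3. Same-numbered deviations correlated between −0.37 and 0.33, which shows no consistent pairing by replicate number. Whether the samples were paired cannot be settled by these values. The block changed no call of the 6 miRNAs (miR-1196 0.81, adjusted p = 0.182).

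The highest array over the median of the others was 45.8 for miR-346, 45.6 for miR-675-5p and 4.41 for miR-1196 with normexp from detection p-values, which removes background. For miR-675-5p the other 9 arrays were undetected, so 45.6 is not a measured fold, and the bound of at least 4.80-fold applies. With 1 array left out the ratio ran from 6.97 to 28.9 for miR-346, 2.98 to 10.1 for miR-7a*, 1.22 to 7.52 for miR-675-5p, 1.55 to 3.00 for miR-1196, 1.17 to 2.55 for miR-692 and 1.35 to 2.14 for miR-703. The lowest of each was reached without WT 5 for the first 3 and without LivPGC-1α 3 for the others.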
